A study of Mus musculus with 10 samples.

Results

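The Gnas cluster is an imprinted domain at the distal end of mouse chromosome 2. Its DNA methylation was examined in fetal testis cells selected for male germ cells, with and without gestational arsenic exposure. Its members were taken by position alone, as every CpG cytosine of the deposited table within an interval of 70 kb of the mm10 genome that opens 4320 b upstream of the Nesp start and closes 3256 b beyond the end of the Gnas gene. The first measured cytosine lay at chr2:174284764 and the last at chr2:174345375. There were 300 such cytosines at 242 CpGs, of 1348062 cytosines in all, with 58 CpGs measured on both strands. The methylation level of a cytosine is its methylated reads divided by all its reads, in percent, and differences between levels are given in percentage points.

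The libraries were made by reduced representation bisulfite sequencing (RRBS), which reads CpG-rich fragments cut by the restriction enzyme MspI at CCGG. After bisulfite conversion, a methylated cytosine appears as C in the reads and an unmethylated one as T. The control group (n = 5) came from C3H/HeN dams on tap water, and the arsenic group (n = 5) from C3H/HeN dams given sodium arsenite in tap water from mid to late gestation. The cells were labelled prospermatogonia, the germ cells of the fetal testis, and the paper describes the fraction as predominantly enriched for them. Each sample was a pool collected late in gestation from the testes of many F1 male embryos by magnetic separation with an antibody against CD90.2 (Thy1.2). The pool is therefore the replicate, no genetic change was present in either group, and the counts carry no information on which parental allele a read came from.

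Several promoters share the downstream exons of Gnas, the gene for the G protein subunit Gs alpha, which couples hormone receptors to cyclic AMP production. The Nesp promoter drives the transcript of the secretory protein NESP55 from the maternal allele and is methylated on the paternal allele in body cells. The Gnasxl promoter, which drives the extra-large subunit XL alpha s, the start of the antisense transcript Nespas, and the promoter of the noncoding exon 1A transcript are active on the paternal allele and carry methylation on the maternal allele that is inherited from the oocyte. The Gnas promoter itself lies in an unmethylated CpG island. Imprinted methylation is erased in fetal germ cells of both sexes, whereas body cells keep it. The paper adds that new methylation is laid down in the male germ line after this erasure, starting in late fetal prospermatogonia.

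Of the 300 cytosines, 183 lay in an annotated Gnas exon and 117 in a Gnas intron, and 76 of them also lay inside the antisense gene Nespas (GENCODE release M21). They fell on 45 fragment strands, that is, on the + or - strand of an MspI fragment, and into 28 runs of cytosines at most 100 b apart. The reference sequence holds 1510 CpGs in the interval, so 16.0% of them were measured. Elements were defined as the cytosines within 1.5 kb of an annotated start site, assigned to the nearest start, plus the stretches between them. Nesp then held 48 cytosines, the stretch from Nesp to Nespas 28, Nespas 9, Gnasxl 45, the stretch from Gnasxl to exon 1A 66, exon 1A 62, the Gnas promoter 15 and the Gnas body 27. In exon 1A 74.7% of the CpGs between the first and the last measured position were covered, against 15.7% at Nespas. Coverage of the members ran from 10 to 174 reads with a median of 34.8, and total CpG calls ran from 44207245 to 66570870 per sample. Arsenic pool 1 stood apart, with a mean level of 42.1% over all CpGs of the table where the other 9 pools lay at 45.2 to 47.3%, and several of the results that rest on it are given with and without it.

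The stretches of sequence on which the comparisons rest are printed from the GRCm38 assembly (+ strand, 5′ to 3′, with measured CpGs in capitals). They show the CpGs that share reads in the exon with the widest spread between pools (Nesp), in the exon measured on both strands (Gnasxl), in both fragments with CpGs called different between groups (Gnasxl, exon 1A) and at the unmethylated start of the Gnas coding sequence.
Nesp coding exon, chr2:174284753-174284852: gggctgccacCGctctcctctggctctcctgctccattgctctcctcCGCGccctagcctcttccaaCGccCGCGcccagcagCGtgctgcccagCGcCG
Gnasxl coding exon, chr2:174298040-174298167: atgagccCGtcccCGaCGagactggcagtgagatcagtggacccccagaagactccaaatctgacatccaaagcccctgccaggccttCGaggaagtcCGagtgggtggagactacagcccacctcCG
Gnasxl coding exon, stretch with hypomethylated calls, chr2:174300111-174300147: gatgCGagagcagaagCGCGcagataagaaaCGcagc
exon 1A, 30 bases that open at a hypermethylated call, chr2:174328645-174328674: CGtggCGgctgCGgtgctggcagaacCGtt
Gnas, first coding bases, chr2:174330296-174330325: atgggctgcctCGgcaacagtaagacCGag

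Levels in these stretches ranged from partial to nearly none. The 9 CpGs of the Nesp stretch averaged 37.6% over the 10 pools, the 6 CpGs of the first Gnasxl stretch 48.0% and the 4 CpGs of the exon 1A stretch 47.9%. The 2 CpGs in the first coding bases of Gnas averaged 0.105%. The CpGs of a stretch had means of 34.2 to 39.3% in the Nesp stretch, of 41.0 to 56.3% in the first Gnasxl stretch and of 47.6 to 48.1% in the exon 1A stretch. The motif TGCCGC, the core of the sequence that the imprint-maintenance protein ZFP57 binds when methylated, occurred at 24 CpGs of the interval when both strands were searched, and 7 of these were measured. None of the printed stretches held it. Exon 1A had 3 measured CpGs in the motif, with a mean level of 42.0% against 40.6% for its other cytosines. In the stretch from Gnasxl to exon 1A 3 such CpGs averaged 42.5% against 55.5% for the rest. This stretch joins runs averaging 42.9 and 42.5% near Gnasxl with intron runs averaging 89.0 and 74.98%. At Gnasxl the only such CpG was at 24.6% against 44.0%. It lay upstream of the start, in a run averaging 24.97%, where the longest run of the first Gnasxl exon averaged 47.4%. Levels thus differed by position within both elements, and a difference due to the motif itself was not tested. The 4 promoter windows that RefSeq gives for Gnas (300 b each, GRCm38) held no match, and 11.6% of all 32851 RefSeq promoter windows of that length held at least 1.

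The first question was how methylation is arranged along the cluster over all 10 pools. Partial methylation was found at Nesp, Nespas, Gnasxl and exon 1A, almost none at the Gnas promoter, and high levels in the introns between Gnasxl and exon 1A and in the Gnas body. The mean level was 35.0% ± 9.45 at Nesp, 23.1% ± 14.9 at Nespas, 43.6% ± 7.96 at Gnasxl and 40.6% ± 9.76 at exon 1A (SD, n = 10). The Gnas promoter stood at 0.891% ± 0.763 and the Gnas body at 70.6% ± 4.09 (SD, n = 10). All CpGs of the table averaged 45.6% ± 1.41 in the same pools.

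**Figure D1:**
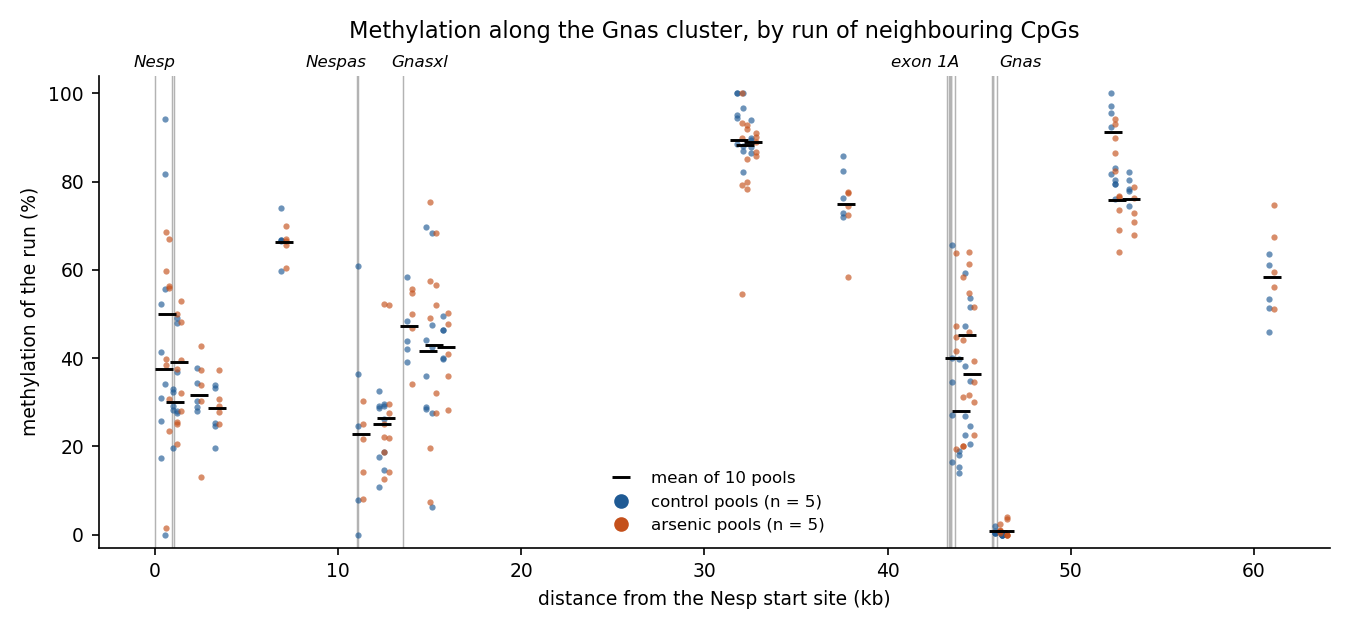
Methylation level in percent (vertical axis) of the 28 runs of neighbouring CpG cytosines, placed by distance from the Nesp start site in kb (horizontal axis). Each dot is a pool (blue control, orange arsenic, n = 5 each), black bars are means of the 10 pools, and grey lines are annotated start sites. Levels lie in the middle of the scale at Nesp, Nespas, Gnasxl and exon 1A, near 0 at the Gnas promoter, and at 58.5 to 91.3% in the runs of the Gnas body.

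The levels of the 5 starts were compared within pools by an exact permutation test of paired differences (two-sided, over all sign flips of the 10 pools, Benjamini-Hochberg adjusted over 10 pairs). The Gnas promoter was lower than each of the other 4 starts in 10 of 10 pools, by 22.2 points against Nespas and by 42.7 points against Gnasxl (exact permutation test, p = 0.00195 and adjusted p = 0.00488 for each of the 4 pairs, the smallest p that 10 pairs allow). Nesp was lower than Gnasxl in 8 of 10 pools, by 8.62 points (exact permutation test, adjusted p = 0.0228). Nespas was lower than Gnasxl in 9 of 10 pools, by 20.5 points, and lower than exon 1A in 9 of 10, by 17.6 points (exact permutation test, adjusted p = 0.0195 and 0.0251), although Nespas was measured at only 9 cytosines. The neighbours in this order that did not differ beyond their spread were Gnasxl and exon 1A, 2.94 ± 8.68 points apart (SD of the difference), Nesp and exon 1A, with a difference of -5.68 ± 11.8 points, and Nesp and Nespas, 11.9 ± 18.9 points (exact permutation test, adjusted p = 0.318, 0.184 and 0.0879).

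Nesp was methylated at partial levels throughout, in its coding exon and in the intron after it. Its runs averaged 30.1 to 49.9%, and the run of 42 cytosines at chr2:174286385-174287070, in the first intron and overlapping Nespas, averaged 31.7% ± 8.02 (SD, n = 10). The element stood at 31.6, 41.0, 33.7, 25.1 and 38.1% in control pools 1 to 5 and at 13.9, 37.7, 42.9, 44.8 and 40.8% in arsenic pools 1 to 5. Arsenic pool 1 was the lowest of all and the other 4 arsenic pools lay at or above 37.7%, so the groups overlapped. The widest spread was in the coding exon, where the 9 cytosines of the printed Nesp stretch, all on the - strand of the same fragment, averaged 17.4, 52.3, 25.7, 30.9 and 41.3% in the control pools and 1.52, 59.8, 38.5, 68.6 and 39.8% in the arsenic pools. In the + strand fragment next to it, measured at 2 cytosines with a median coverage of 23 reads, control pool 4 was at 0% and control pool 3 at 94.1%. Further into the cluster, 4 cytosines at chr2:174291297-174291419 were at 66.3% ± 4.10 and ranged over pools only from 59.8 to 74.0%.

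Levels were lower near the antisense start than in the first Gnasxl exon. The 8 cytosines at chr2:174295494-174295632, next to the Nespas start, averaged 22.9% ± 17.4 (SD, n = 10), with pools from 0 to 60.9%. The Nespas element stood at 10.4, 3.17, 35.6, 23.9 and 56.2% in the control pools and at 28.4, 12.8, 15.6, 23.1 and 21.5% in the arsenic pools. The control pools held both the lowest and the highest value, and the arsenic pools lay between them. The 4 cytosines at chr2:174296643-174296763 averaged 24.97% and the 3 at chr2:174296953-174296977 averaged 26.4%, all upstream of the Gnasxl start. In the first Gnasxl exon, the 32 cytosines at chr2:174298019-174298437 averaged 47.4% ± 7.73. The 37 cytosines at chr2:174299947-174300463, which lie partly in that exon and partly in an intron, averaged 42.5% ± 6.89. The shorter runs between them were as high on average but spread more widely, at 41.6% ± 21.8 (7 cytosines) and 42.9% ± 19.8 (10 cytosines). The runs of 10 and 37 cytosines count to the stretch from Gnasxl to exon 1A, together with the intron runs below, and not to the Gnasxl element. The Gnasxl element stood at 41.8, 49.0, 38.6, 48.7 and 34.7% in the control pools and at 30.3, 50.2, 38.1, 50.5 and 54.0% in the arsenic pools. Arsenic pool 1 was again the lowest and arsenic pool 5 the highest, and the groups overlapped.

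The intron between Gnasxl and exon 1A was highly methylated. The 12 cytosines at chr2:174316904-174317100 averaged 89.0% ± 2.45 and ran only from 85.8 to 93.9% over the pools, the narrowest spread among runs of the cluster outside the Gnas promoter. The 5 cytosines at chr2:174321981-174322077 averaged 74.98% ± 7.31.

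Exon 1A, the start of the noncoding transcript next to Gnas, was partly methylated over 62 cytosines, each at a different CpG and all at chr2:174327860-174328978. Its runs averaged 40.1% (12 cytosines), 28.0% (5), 45.2% (30) and 36.3% (15) in chromosome order. The element stood at 31.3, 30.1, 39.8, 51.0 and 30.7% in control pools 1 to 5 and at 33.0, 38.6, 47.7, 46.0 and 58.3% in arsenic pools 1 to 5. Arsenic pool 5 was the highest and control pool 2 the lowest, and control pool 4 exceeded all arsenic pools but the highest.

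The first measured cytosine of the Gnas promoter lay 1297 b after the last one of exon 1A. Annotated Gnas starts at chr2:174330006, 174330089 and 174330097 lay upstream of it. The measured part of the promoter was nearly free of methylation. Its 14 cytosines at chr2:174330275-174330373, at the start of the first coding exon of Gs alpha, stood at 0.397, 0.706, 0.317, 1.97 and 0.275% in the control pools and at 0.754, 0.960, 0.376, 2.48 and 0.778% in the arsenic pools. No pool rose above 2.48%, and the groups overlapped. Unmethylated cytosines that bisulfite failed to convert are counted in these values. Within the gene the level was high again, at 75.8% ± 5.67 in the 5 cytosines at chr2:174336750-174336937, 76.0% ± 4.45 in the 10 at chr2:174337544-174337711 and 58.5% ± 8.64 in the 10 at chr2:174345184-174345375.

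Levels of cytosines that share reads varied together between pools, and those of cytosines read apart did so less. Among 259 cytosines with a mean level of 20 to 80%, pairs on the same fragment strand had a median Pearson's r of 0.943 over the 10 pools (1158 pairs, interquartile range 0.890 to 0.972). Pairs on the opposite strands of the same CpG, which are read in different reads, had a median r of 0.106 (46 pairs), and pairs on different fragments of the same element 0.184 (4358 pairs). These correlations are given as a description, since cytosines of a fragment strand come from the same reads. Of 13 fragments measured on both strands, the correlation of the strands over pools ran from -0.366 to 0.475, with a median of 0.0102. The strands of a fragment differed by 12.9 points in the same pool on average (median over the 13 fragments) and by up to 62.1 points, in the first Gnasxl exon.

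**Figure D2:**
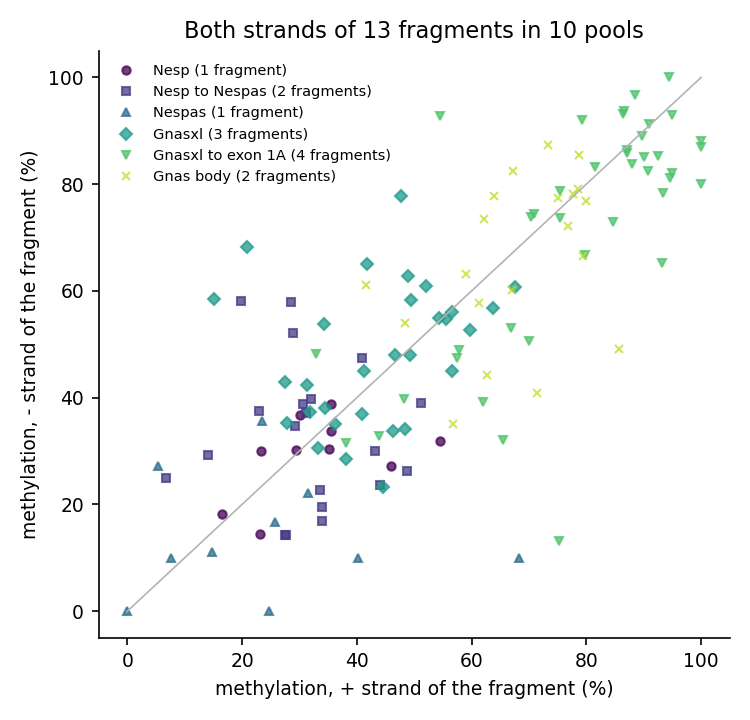
Mean methylation of the - strand (vertical axis, %) against that of the + strand (horizontal axis, %) for the 13 fragments measured on both strands, with each fragment shown in 10 pools and the symbol giving its element. The diagonal marks equal levels. Fragments keep their general level on both strands, while points of the same fragment scatter widely around the diagonal.

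At partial levels, the spread between pools was larger at the median than binomial sampling would give if every counted read were independent. Of 37 fragment strands with a mean of 20 to 80%, 18 ranged over more than 40 points between pools, and the median SD over pools was 11.8 points against 8.27 points from binomial sampling at the same coverage. The ratio of these SDs had a median of 1.52 and reached 2.60 at the + strand fragment in the Nesp coding exon. In the 5 fragment strands above 80% the median ratio was 0.892. Per cytosine, the variance between pools of the same group, around the mean of that group, was set against the binomial variance. It was 2.98 times as large at the median (259 cytosines of the cluster at 20 to 80%), beside 2.33 times over all 517322 cytosines of the table in that range. This difference was not tested, because cytosines of a fragment are not independent. An even coverage was found at no fewer than 52.7% of the members in any pool. Of these members with even coverage, 66.5 to 84.1% per pool had an even methylated count too. Over all cytosines of the table, 54.1 to 58.3% per pool had an even coverage, and 76.0 to 80.5% of those an even methylated count. The part of doubly counted read mates in the spread was not tested.

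The second question was whether the cluster differed between the arsenic and the control group. At the level of whole elements, no difference exceeded the spread between pools (exact permutation tests over all assignments of 5 pools against 5, two-sided, unadjusted, with 0.00794 as the smallest p possible; values are mean ± SD, n = 5). Nesp averaged 33.9% ± 6.14 over the control pools and 36.0% ± 12.7 over the arsenic pools (exact permutation test, p = 0.786). Gnasxl was at 42.6% ± 6.26 and 44.6% ± 10.04 (exact permutation test, p = 0.683), and Nespas at 25.9% ± 21.1 and 20.3% ± 6.21 (exact permutation test, p = 0.619). Exon 1A had the largest difference of the 8 elements, 36.6% ± 8.98 against 44.7% ± 9.61 in the arsenic pools, or 8.14 points (exact permutation test, p = 0.214), with 4 of 5 arsenic pools above the control mean. The Gnas promoter was at 0.685% ± 0.665 and 1.10% ± 0.872 (exact permutation test, p = 0.437) and the Gnas body at 71.2% ± 4.25 and 70.01% ± 4.33 (exact permutation test, p = 0.683). Between Nesp and Nespas the means were 35.5% and 35.0%, and between Gnasxl and exon 1A 55.7% and 54.1% (exact permutation test, p = 0.913 and 0.675). Arsenic pool 1 was the lowest of the 10 pools in 5 of the 8 elements, and without it the difference at Nesp was 7.66 points and that at exon 1A 11.1 points (exact permutation test, p = 0.0714 and 0.111).

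**Figure D3:**
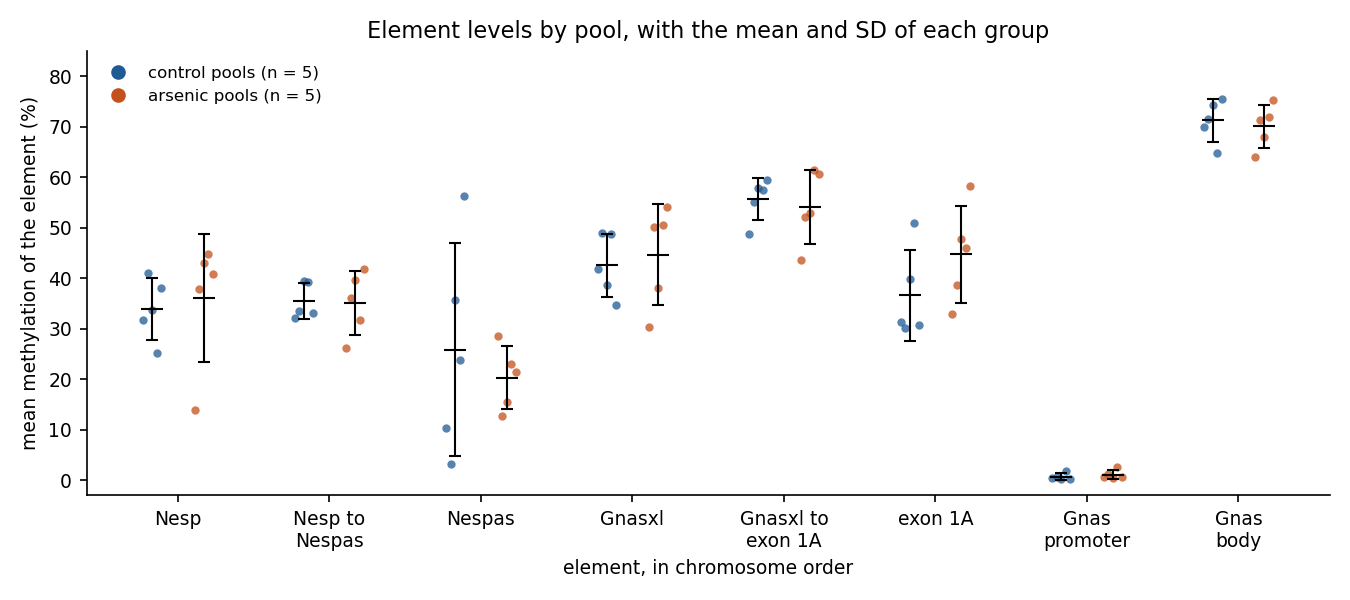
Mean methylation in percent (vertical axis) of the 8 elements of the cluster in chromosome order (horizontal axis). Dots are pools, blue for control and orange for arsenic (n = 5 each), and black bars give the group mean ± SD. The groups overlap in every element, and the largest difference between group means is the 8.14 points of exon 1A.

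Single CpGs were then tested with the rule of the study for a differentially methylated cytosine (DMC), a logistic regression on reads with q of at most 0.01 and a pooled difference of at least 10 points. In the cluster 4 of 300 cytosines were hypoDMCs (1.33%), where 1.48% of all cytosines of the table were called, and 3 were hyperDMCs (1.00%), where 0.784% of the table were. These shares were close to the background of the table. No cytosine of the cluster (0 of 300) had levels without overlap between the groups, which 0.693% of the table had. Limma on log2((methylated + 1)/(unmethylated + 1)), which takes the pool as the replicate, called 0 of the 300 cytosines (smallest adjusted p = 0.830, with 2 at an unadjusted p under 0.05), and so did the logistic test with an overdispersion factor and an F test (3 at an unadjusted p under 0.05). The share of the table that limma or the F test called per cytosine is not given here, so these counts have no background beside them.

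The 7 calls came from 2 fragment strands, so that each group of calls rests on the same reads. The 4 hypoDMCs lay at chr2:174300115-174300142 in the first Gnasxl exon, on a + strand fragment whose 11 cytosines averaged 58.3, 34.6, 52.6, 35.4 and 47.3% in the control pools and 16.999, 42.8, 34.5, 41.2 and 36.8% in the arsenic pools. Their pooled differences were -14.6 to -13.2 points. The highest 3 pools were control pools and the lowest was arsenic pool 1, while the rest of both groups lay together between 34.5 and 42.8%. The 3 hyperDMCs lay at chr2:174328621-174328690 in exon 1A, on a + strand fragment whose 23 cytosines averaged 23.9, 42.5, 48.5, 61.6 and 22.8% in the control pools and 51.4, 28.1, 67.3, 62.5 and 68.74% in the arsenic pools. Their pooled differences were 17.3 to 18.9 points. The 3 highest pools were arsenic pools 5, 3 and 4, directly above control pool 4, and arsenic pool 2 lay near control pools 1 and 5.

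**Figure D4:**
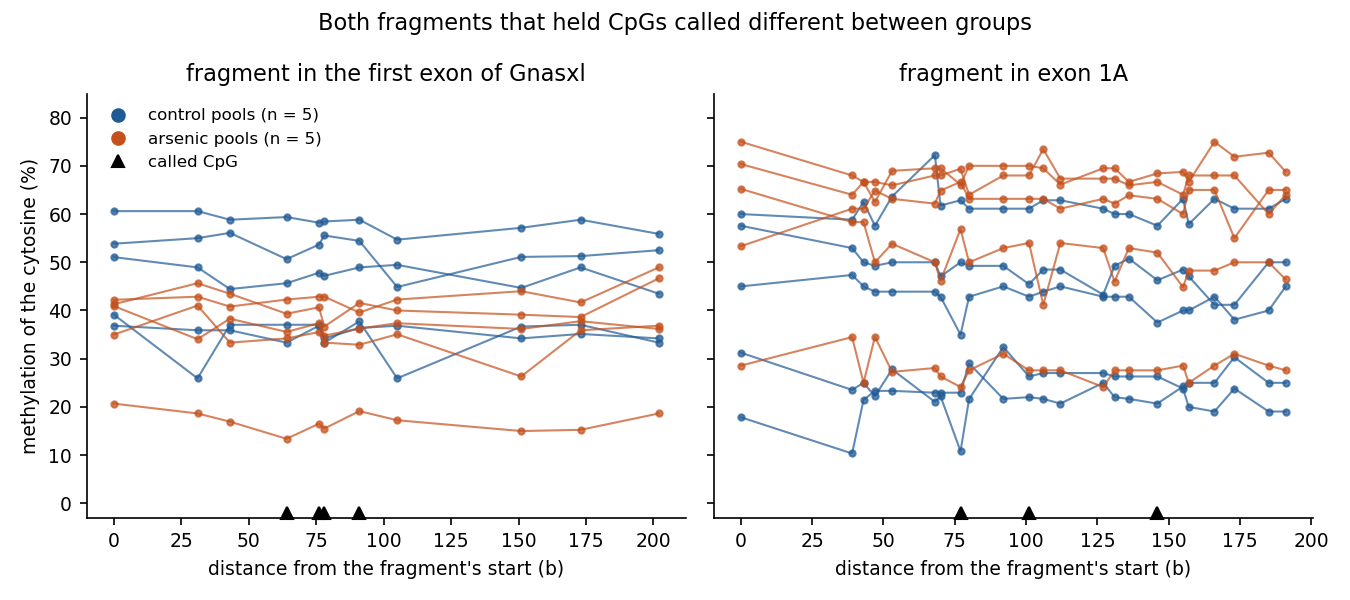
Methylation level in percent (vertical axis) of each measured cytosine of both fragments that held called CpGs, by distance from the start of the fragment in bases (horizontal axis). Each line is a pool, blue for control and orange for arsenic (n = 5 each), and triangles mark the 4 hypoDMCs (left) and 3 hyperDMCs (right). The lines run nearly level along each fragment and those of the groups interleave.

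These calls depended on single pools. None of the 4 hypoDMCs was still called without control pool 1, control pool 3 or arsenic pool 1, and 2 were called without control pool 5. None of the 3 hyperDMCs was still called without control pool 1, control pool 5, arsenic pool 3 or arsenic pool 5, and 1 was called without arsenic pool 4. Without arsenic pool 2 the cluster held 18 hyperDMCs and without control pool 4 it held 16, against 10 without control pool 3, 9 without arsenic pool 1 and 5 without control pool 5. The share of the table called without each of these pools is not given here, so these counts describe the cluster only.

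Runs of at least 3 cytosines were tested as regions by limma over all 139746 such regions of the table. None of the 23 regions of the cluster passed at an adjusted p under 0.05, and 0% of the table did (smallest adjusted p of the cluster = 0.697). The log2 difference of methylated to unmethylated reads fitted by limma was above 0 (higher in the arsenic group) in 12 regions and below 0 in 11, with a median of 0.10 against -0.09 over all regions. At an unadjusted p under 0.05 limma named 1 of the 23 regions, where 7.09% of the table passed. It was the run at chr2:174336750-174336937 in the Gnas body, covering an exon and its intron, with a mean of 79.6% ± 2.55 in control and 72.0% ± 5.47 in arsenic pools. By limma its unadjusted p was 0.0379 and its adjusted p = 0.697. The control pools stood at 79.4, 83.1, 80.3, 76.0 and 79.4% and the arsenic pools at 64.0, 76.8, 69.1, 73.6 and 76.6%. Arsenic pool 1 was the lowest, and 2 arsenic pools lay above the lowest control pool. Without arsenic pool 1 the difference was -5.59 points, against -7.59 points over all pools (exact permutation test, p = 0.0317 and 0.0238, unadjusted).

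The cluster was last set beside other sequences of known behaviour in the same pools. Promoters of germ cell genes, which body cells methylate and germ cells keep unmethylated, had a mean level of 59.4% ± 7.20 over the 11 of 14 listed genes that were measured, from 37.6% at Mov10l1, a helicase of the piRNA pathway measured at 1 cytosine, to 73.0% at Taf7l, a germ cell transcription factor. Every pool lay between 46.1 and 73.4%. These levels lie above those that germ cells are known for, while the labels name prospermatogonia as the cell type. In such bulk DNA the share of cells that carry a mark and the level of the mark per cell cannot be told apart. Other maternally methylated promoters averaged 37.0% ± 6.11 over 10 of the 11 listed genes, from 19.8% at Kcnq1ot1, a noncoding antisense transcript, to 47.3% at Mcts2. This is a mean of gene means, each gene weighing the same whatever its share of the 273 cytosines, while elements are means over cytosines. Gnasxl was 6.56 points above them and exon 1A 3.62 points, while the difference for Nesp was -2.05 points (exact permutation test of paired differences, adjusted over 3 pairs, p = 0.111, 0.272 and 0.412, a comparison added after the data were seen). The region upstream of H19, which is methylated on the paternal allele, was at 68.65% ± 12.7 over 4 cytosines, 76.1% in the control and 61.2% in the arsenic group (n = 5 each; exact permutation test, unadjusted p = 0.0238). Arsenic pool 1 was at 36.8% there, and without it the difference moved from -14.9 to -8.81 points (exact permutation test, p = 0.0397).

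Among 12 relations computed between elements and these sets over the 10 pools, 1 passed the correction. The level of exon 1A followed that of the germ cell gene promoters, with a Pearson's r of 0.833 (permutation test with 100000 resamples, p = 0.00109, adjusted p = 0.0131) and a Spearman's rho of 0.879 (permutation test, p = 0.00145, adjusted p = 0.0174). Without the 2 pools farthest from the median of exon 1A, control pool 4 and arsenic pool 5, r was 0.736, and over all pools left out in turn it stayed between 0.709 and 0.894. With coverage-weighted levels it was 0.725 (permutation test, p = 0.0149, not adjusted). Within the groups r was 0.749 in the control and 0.965 in the arsenic pools (n = 5 each, too few for a test). Exon 1A with other maternally methylated promoters had an r of 0.113 in the control and 0.928 in the arsenic pools. With all CpGs of the table its r was -0.484 and 0.906, so the high r in the arsenic pools was not particular to germ cell gene promoters. Over the 10 pools r was 0.579 and 0.379 for these relations (permutation test, adjusted p = 0.163 and 0.319). The germ cell gene promoters stood 3.33 points higher in the arsenic group, with 57.7% ± 3.41 against 61.1% ± 9.90 (SD, n = 5 each; exact permutation test, p = 0.508), beside the 8.14 points of exon 1A. Without arsenic pool 1 they stood 7.06 points higher (exact permutation test, p = 0.0476, unadjusted) beside 11.1 points at exon 1A, and their part in the difference at exon 1A was not tested.

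**Figure D5:**
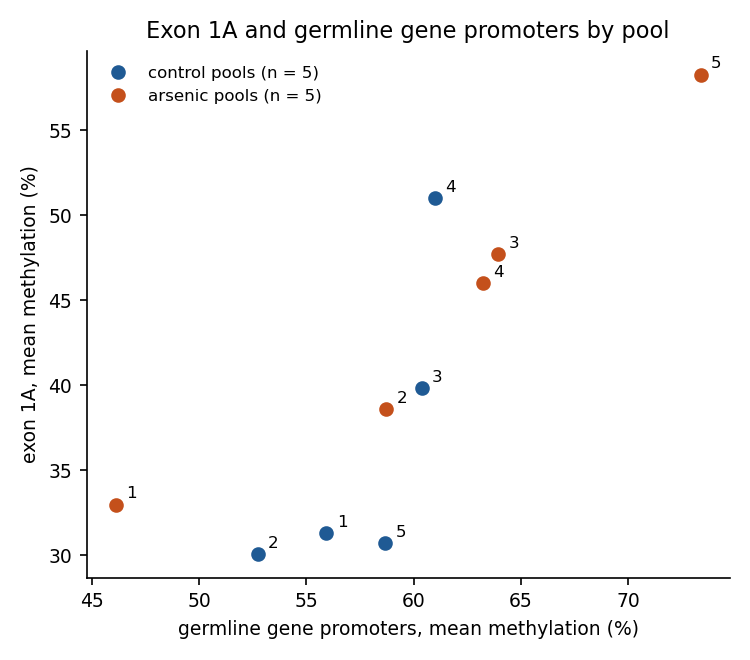
Mean methylation of exon 1A (vertical axis, %) against that of the germ cell gene promoters (horizontal axis, %) in the 10 pools, numbered within the control (blue) and arsenic (orange) groups. Axes do not start at 0. Arsenic pool 5 is highest on both axes, and r is 0.833 over all pools.

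The corresponding r with germ cell gene promoters was 0.580 for Gnasxl and 0.628 for Nesp (permutation test, adjusted p = 0.163 for both). Without arsenic pool 1 these were 0.324 and 0.254. Nesp and the mean of all CpGs of the table had an r of 0.750 (permutation test, p = 0.0317, adjusted p = 0.163), which rested on arsenic pool 1, since r was 0.193 without it and 0.00818 without the 2 pools farthest from the median. Between elements, r was 0.519 for Nesp and Gnasxl, 0.537 for Gnasxl and exon 1A and 0.244 for Nesp and exon 1A (permutation test, adjusted p = 0.163, 0.163 and 0.510). Without arsenic pool 1 these were 0.116, 0.481 and 0.0461.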

How the data were processed

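According to the methods and the submitters' processing notes, reads were trimmed with Trim Galore 0.6.5, mapped to mm10 with Bismark 0.22.3 and united with methylKit 1.22.0, strands kept apart and a pool of low read number left out by the authors. The treatment of PCR duplicates and overlapping mates was not given in the sources used here. The deposited table holds counts of methylated and unmethylated reads per CpG cytosine, with a lowest coverage of 10.

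Samples were grouped by title, and columns assigned by library name. An element's level in a pool is the unweighted mean of its cytosines, and a list's level is the mean of the means of its genes. All fits ran on the whole table (1348062 cytosines, 139746 regions), with Python 3.11.15, scipy 1.17.1 and limma 3.58.1, and the region test was tested on simulated data. The DMC rule is that of the study. The likelihood ratio without overdispersion and the Benjamini-Hochberg adjustment were chosen here. The lists of germ cell gene promoters (500 b each side of the start), other maternally methylated promoters (1 kb each side) and the H19 region (2 to 4 kb upstream) were used as wholes. The members, the lists and the rule for naming sites (all runs of at least 3 cytosines, and called CpGs) were chosen with earlier results of these data known. The alternatives were coverage, gap, window, weighting, merged strands, other tests, a replicate block and each sample left out.

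The median SD expected from coverage was 8.27 points for fragment strands at 20 to 80%, which covers counting error only.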

Additional observations from a re-analysis of the deposited data

Results flagged for a closer look

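In groups of 5 pools, the highest or lowest pool was set against its group by Dixon's ratio (critical value 0.71). Of 62 such tests of elements and runs, 6 stood out, where chance alone gives about 3.1. Elements and runs share cytosines, so the tests are not independent and these numbers do not measure an excess. Arsenic pool 1 lay below its group at Nesp, at 13.9%, and at the intronic run chr2:174321981-174322077, at 58.4%. Control pool 1 lay above its group at chr2:174328270-174328398 in exon 1A, at 39.8%. Control pool 4 lay above its group at the Gnas promoter element, at 1.84%, and in the run of 14 cytosines within it, at 1.97%. Arsenic pool 4 stood out in that same run, at 2.48%.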

How the results depend on the processing

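Differences between the starts along the cluster kept their direction and their side of the threshold with coverage-weighted levels and with windows of 1 kb. DMC calls did not last. The counts of hypoDMCs and of hyperDMCs were both 0 with the overdispersion F test, with limma per CpG and with a difference of at least 20 points, and 7 hyperDMCs were called at a coverage of at least 20. Leaving out 1 pool gave 0 to 5 hypoDMCs and 0 to 18 hyperDMCs. The share of the table called under these other settings is not given here. No region passed an adjusted p under 0.05 with any gap, with coverage of at least 20 or without any pool, and at an unadjusted p, where 1 region passed, none did with a gap of 50 b, a coverage of at least 20, or without control pool 2 or 3, and 2 did without control pool 4, arsenic pool 1 or arsenic pool 2.

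With the replicate block, limma called 0 regions of the cluster (smallest adjusted p = 0.763), and 0 at an unadjusted p under 0.05 (smallest 0.0689). Same-numbered pools deviated together little, with correlations of -0.0165 to 0.0391 over all regions against -0.0438 to 0.0306 for other numbers. Of 5 controls, 1 was closest to its own number. Whether same-numbered pools shared a collection or library batch is not stated in the labels, and this check cannot decide it.

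Small element differences changed sign. Between Nesp and Nespas the difference was 0.280 points with merged strands, 0.497 at a coverage of at least 20 and 0.0407 with windows of 1 kb, and in the Gnas body 0.0185 when weighted and 0.0690 at a coverage of at least 20. Without 1 pool the differences ran from -0.0763 to 7.66 points at Nesp, -2.11 to 1.82 between Nesp and Nespas, -11.3 to 2.01 at Nespas, -0.294 to 5.65 at Gnasxl, -3.46 to 0.971 between Gnasxl and exon 1A, 4.75 to 11.7 at exon 1A, 0.0438 (without arsenic pool 4) to 0.703 (without control pool 4) at the Gnas promoter and -2.81 to 0.346 in the Gnas body. The sign turned without control pool 4 or arsenic pool 4 at Nesp, control pool 3 or 4 or arsenic pool 1 or 4 between Nesp and Nespas, control pool 5 at Nespas, arsenic pool 5 at Gnasxl, and arsenic pool 1 between Gnasxl and exon 1A and in the Gnas body. Their p stayed over 0.05 throughout.

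The correlation of exon 1A with germ cell gene promoters kept its unadjusted call in every alternative. With coverage-weighted levels r was 0.725 (permutation test, p = 0.0149, unadjusted). The adjustment over the 12 relations was not repeated for the alternatives, so these calls do not show that the correlation passes the correction there. For Nesp with these promoters r was 0.675 with weighted levels (permutation test, p = 0.0359) and 0.254 to 0.761 without 1 pool. Without 1 pool r ran from 0.116 to 0.663 for Nesp and Gnasxl, 0.356 to 0.699 for Gnasxl and exon 1A, 0.180 to 0.725 for Nesp and other maternally methylated promoters, 0.193 to 0.821 for Nesp and all CpGs, 0.324 to 0.717 for Gnasxl and germ cell gene promoters and 0.0436 to 0.675 for Gnasxl and all CpGs, with unadjusted permutation calls on both sides of 0.05. The lowest r of each relation came without arsenic pool 1, except for Gnasxl and exon 1A, where it came without arsenic pool 5. The cause of these changes was not tested. Coverage of at least 20 in every pool held for 154 of the 300 cytosines, and shared reads leave far fewer independent values than cytosines.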
